A study of Sus scrofa with 16 samples.

Results

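The ovaries of high-fecundity and low-fecundity Large White sows were compared across the estrous cycle. Libraries were assigned by the fecundity and the cycle day in their labels, and all 16 libraries of the series entered the comparison, 8 from sows with high and 8 from sows with low fecundity. The groups were LH and LL, high and low fecundity on day 14 in the luteal phase, and FH and FL, high and low fecundity on day 20 in the follicular phase, with 4 unrelated sows in each. The question was which transcripts differ with fecundity in either phase, so the difference between the levels was estimated with the phase held fixed. All sows belonged to a Canadian Large White population. The study chose its sows with parity in mind, yet in its records the high-fecundity sows had borne more litters on average, and the part of litter number in the differences was not tested. Each library was made from whole ovary with ribosomal RNA removed, and each sow was sampled at a single time.

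In the sow, litter size depends on how many follicles ovulate and how many embryos survive. Follicle growth is set by gonadotropins together with growth factors of the TGF-beta and insulin families, and the corpora lutea left after ovulation make the progesterone that maintains pregnancy. Whole ovary also holds stroma, vessels, smooth muscle and immune cells, and in such bulk tissue fewer cells of a type and less RNA per cell cannot be told apart.

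Expression was deposited as FPKM for 27370 transcripts, the fragments of a transcript divided by its length and by the sum of fragments in its library. The length that fitted the values was reduced by a fragment-length term that differed between libraries, from 201 nt in LH2 to 269 nt in LL4. The depth recovered from the steps between low FPKM values was 165000 to 305000 fragments per library, so that 1 fragment of a 2000-nt transcript was worth 1.86 to 3.47 FPKM. This is far fewer fragments than the sequenced reads that the study describes, for a reason not given in the sources used here, and all fragment counts below rest on this recovered depth. The number of fragments did not separate the levels (exact two-sided permutation test within phase over 8 and 8 libraries, p = 0.894). Its direction differed between the phases, with means of 232500 in LH and 195000 in LL, and of 218250 in FH and 249500 in FL. Few ovarian markers could be followed, since the table gives transcript IDs and few of these markers had a paired symbol. GATA4, a transcription factor of granulosa and theca cells, was listed above 0 in 5 of 8 high and 5 of 8 low libraries, reaching 11.4 and 6.48 FPKM. FOXL2, which maintains granulosa cells, was above 0 in 4 of 8 high libraries and 1 of 8 low libraries, on 6 and 2 fragments. GATA6 and NPR2 leaned the other way, listed at 0 in 3 and 5 high libraries and in 2 and 3 low libraries. Their pooled log2 fold changes were -0.49 (SE 0.53) and -0.60 (SE 0.46), beside 0.28 (SE 0.65) for GATA4. STAR, CYP11A1, CYP19A1, INHA, AMH, FSHR and LHCGR were not analysed here.

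Most transcripts that differed between the levels by the study's own threshold were higher in high fecundity, and most of them rested on few fragments. No transcript passed adjustment over all 5956 tested. With limma, 0 transcripts had a Benjamini-Hochberg adjusted p under 0.05, the smallest adjusted p was 0.733, and 360 transcripts (6.04%) had an unadjusted p under 0.05. With limma voom on the recovered fragments the adjusted count was also 0, with 348 transcripts at an unadjusted p under 0.05. The study called a transcript different when its unadjusted p was under 0.05 and its log2 fold change was 1 or more in either direction. At this threshold 293 transcripts (4.92%) passed, 208 of them higher (3.49%) and 85 lower (1.43%) in high-fecundity ovaries. Of these 293, 122 had a gene symbol in the sources used here. In 241 of the 283 that were long enough for fragments to be recovered, the level with more fragments averaged fewer than 10 per library. The standard error of the log2 fold change had a median of 0.56 over all transcripts, and of 0.37 over the 1432 transcripts with a mean of at least 20 FPKM.

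The direction of the calls moved with some scalings. The median log2 fold change of all tested transcripts was 0.13 in favour of the high-fecundity libraries, and counted relative to this median 269 transcripts (4.52%) passed the same threshold. Of the 293 transcripts past the threshold 71.0% were higher in high fecundity. After quantile normalization this became 148 higher and 119 lower (55.4% higher), with a median of 0.00. When FPKM was rescaled in each library without its most abundant transcript, ND6, it became 167 higher and 127 lower (56.8% higher), with a median of 0.01. Median-ratio scaling left the split near the reported value, with 210 higher and 89 lower (70.2% higher). Without library LH2 alone, 128 were higher and 79 lower.

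**Figure D1:**
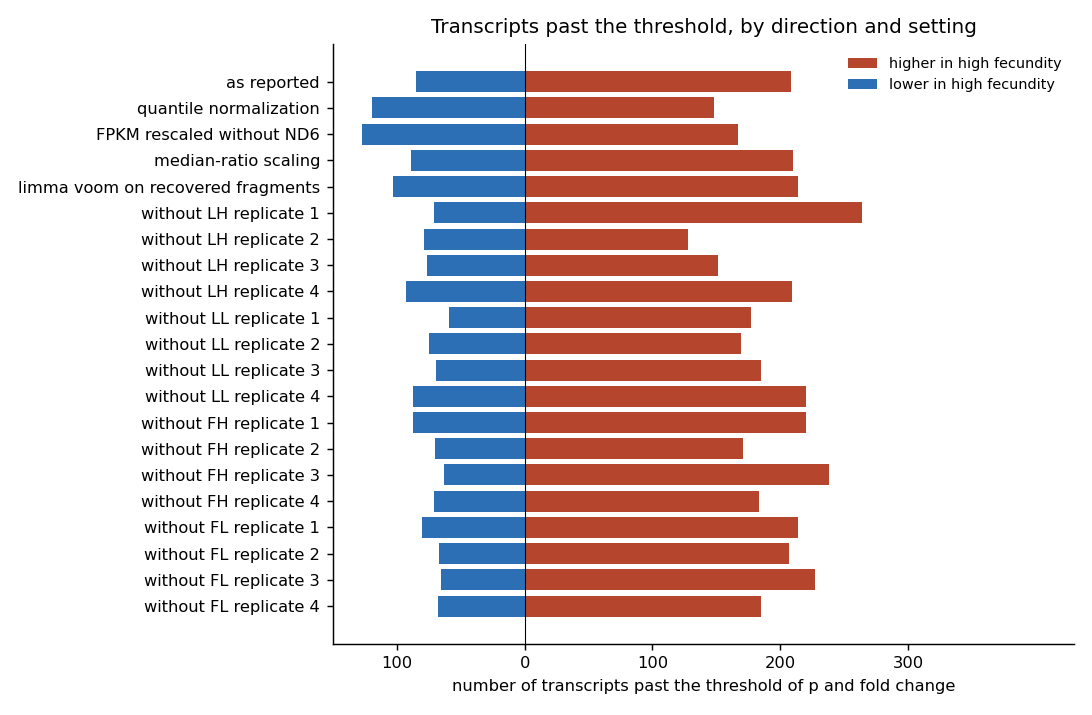
Horizontal bars give the number of transcripts past the study's threshold, to the right for transcripts higher and to the left for transcripts lower in high fecundity, as reported (208 and 85), under 4 other scalings or models and with each library left out. The excess of higher transcripts was smallest after quantile normalization (148 and 119) and after rescaling without ND6 (167 and 127).

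ND6, the mitochondrially encoded subunit of respiratory complex I, was the most abundant transcript of the table, and its level was lower in high-fecundity ovaries. Its share of the summed FPKM was 20.9, 6.68, 22.3 and 22.8% in LH1 to LH4 and 46.8, 26.3, 40.6 and 24.0% in LL1 to LL4. It was 18.4, 9.09, 14.7 and 9.42% in FH1 to FH4 and 19.3, 16.9, 14.7 and 19.0% in FL1 to FL4. Every LH library lay below every LL library, whereas FH1 lay within the range of FL. In FPKM, ND6 ranged from 32444 to 126084 (median 89736) in the 8 high libraries and from 78872 to 359912 (median 123908) in the 8 low libraries. The pooled log2 fold change was -0.96 (SE 0.30, limma adjusted p = 0.736), just under the study's fold threshold, and its values within the phases were -1.33 in LH vs. LL and -0.60 in FH vs. FL. ND6 is encoded on the mitochondrial strand opposite to most other subunits, and the strand setting used in counting was not stated, so reads of opposite transcripts cannot be told apart. ND4, the other mitochondrially encoded subunit with a symbol, had a log2 fold change of -0.54 (SE 0.37), with ranges of 893 to 7786 FPKM in high and 1571 to 10224 FPKM in low libraries that overlapped widely.

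The 10 most abundant transcripts of each library together took a smaller share of the summed FPKM in high-fecundity ovaries. The share was 33.4 to 44.7% (mean 40.2%) in the 8 high libraries and 38.8 to 61.5% (mean 47.8%) in the 8 low libraries. The difference was -7.68 percentage points (exact two-sided permutation test within phase over 4900 rearrangements, p = 0.00327, adjusted over the 3 library measures p = 0.0098). Within the phases the means were 42.8 ± 2.96% in LH and 54.7 ± 7.21% in LL, and 37.5 ± 3.55% in FH and 41.0 ± 1.69% in FL (SD, n = 4 each). With ND6 left out of both sums, the difference was -0.59 points (exact permutation p = 0.61). The number of transcripts listed at 0.5 FPKM or more was 707 higher on average in the high libraries, within the spread between sows (exact permutation p = 0.265, adjusted p = 0.397). The excess lay in the luteal phase, with means of 6708 in LH and 5102.5 in LL, against 8280 in FH and 8471 in FL. LL also had the lowest mean number of fragments. The part of depth and detection in transcripts listed at 0 in LL was not tested.

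**Figure D2:**
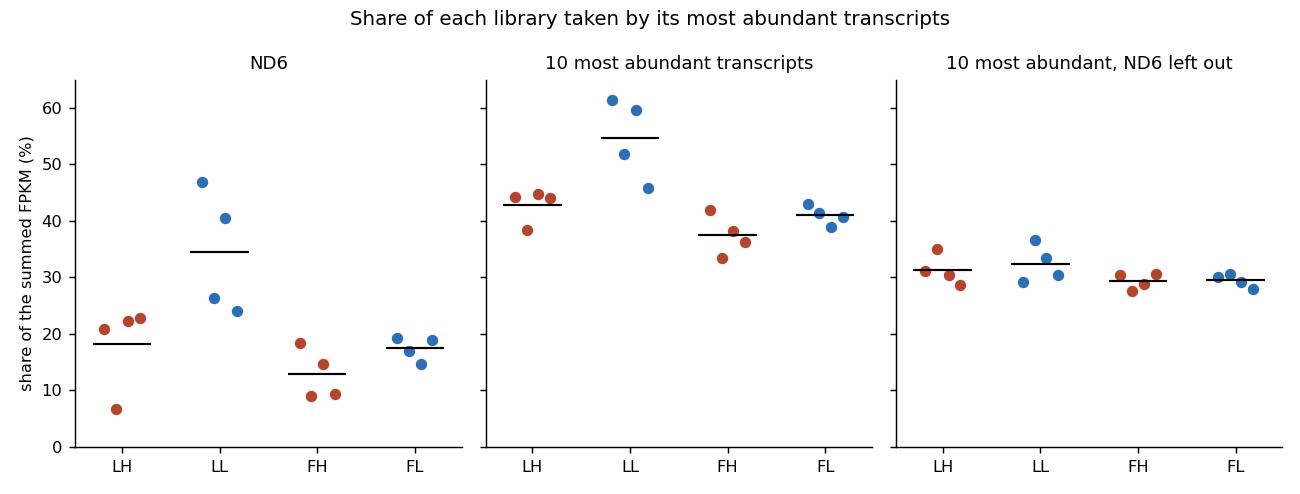
Points are single libraries and lines are group means of the share of the summed FPKM (%) taken by ND6 (left), by the 10 most abundant transcripts (middle) and by the 10 most abundant with ND6 left out of both sums (right), for LH and FH (red) and LL and FL (blue). LL libraries reached 46.8% for ND6 alone and 61.5% for the 10 most abundant, while the groups overlapped on the right.

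Among transcripts with a symbol that were past the threshold and higher in high fecundity in both phases, P2RY1 had the smallest p. P2RY1 is a receptor for extracellular ADP that raises intracellular calcium. The LH libraries had 28.3, 85.6, 11.7 and 25.2 FPKM, and the LL libraries were listed at 0, 0, 2.93 and 2.94. In FH it was at 22.7, 15.04, 10.1 and 27.5 FPKM, against 12.6, 12.3, 6.47 and 0 in FL. LH lay wholly above LL, as did 244 transcripts (4.1%) whose LH and LL values did not overlap in either direction, while FH3 fell within the range of FL. The log2 fold change was 2.78 (SE 0.65, limma adjusted p = 0.733), on 102 fragments in the high and 17 in the low libraries.

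INTS8, a subunit of the Integrator complex that processes small nuclear RNA and attenuates transcription, was the best measured of these transcripts, with 2468 fragments in the high and 902 in the low libraries. Its level was 365, 453, 367 and 475 FPKM in LH and 73.8, 78.3, 116 and 265 FPKM in LL. In the follicular phase it was 303, 88.7, 251 and 156 FPKM in FH and 91.6, 208, 80.2 and 52.1 FPKM in FL. LH did not overlap LL, whereas FH overlapped FL, with FH2 and FH4 inside the FL range. The log2 fold change was 1.37 (SE 0.34, limma adjusted p = 0.736), with 1.82 in LH vs. LL and 0.92 in FH vs. FL.

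The other transcripts described here that were chosen in the same way rested on few fragments, between 16 and 41 in the high and 2 and 11 in the low libraries. LATS1, a kinase of the Hippo pathway that restrains growth, was at 1.3 to 6.03 FPKM in all 8 high libraries and listed at 0 in 6 of 8 low libraries, where FL1 reached 5.61. NANOS1, an RNA-binding protein of germ cells, was at 2.74 to 29.1 FPKM in all high libraries and at 0 in 5 low libraries. ID4, an inhibitor of helix-loop-helix transcription factors, was at 1.23 to 7.93 FPKM in all high libraries and at 0 in 6 low libraries. In these genes the high libraries were all above 0, and the low ones were mostly not. KCNJ3, a subunit of inwardly rectifying potassium channels, was above 0 in all high libraries and at 0 in the 4 LL libraries. SERBP1, an RNA-binding protein, and TMEM222, a membrane protein, were each above 0 in 7 high libraries and in 1 low library. The filter asked for 0.5 FPKM in at least 8 libraries, so transcripts at 0 in most low libraries entered only through the high ones. SERBP1 and TMEM222 were tested in only 8 of the 16 fits that left out a library. TAS2R39, a bitter taste receptor, had the largest log2 fold change of the 10 (3.35, SE 0.85), with 13.4 to 71.5 FPKM in FH against 0, 11.5, 0 and 0 in FL, although reads may be shared within this receptor family. Their log2 fold changes ranged from 1.596 to 3.35, and each had a limma adjusted p of 0.736. Of the transcripts without a symbol that were higher in high fecundity, ENSSSCT00000016059 (2.89, SE 0.71) and ENSSSCT00000027765 (2.29, SE 0.62) had the smallest p. ENSSSCT00000027765 was likewise tested in only 8 of the 16 fits that left out a library.

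Among transcripts with a symbol that were lower in high fecundity, OAZ1 had the smallest p. OAZ1 encodes antizyme, which targets ornithine decarboxylase for degradation and so limits polyamine synthesis. It was at 10.1, 9.96, 15.99 and 16.2 FPKM in LL and at 3.25, 4.43, 7.74 and 4.55 in FL, whereas it was listed at 0 in 6 of 8 high libraries, with 11.5 in LH1 and 4.24 in LH3. The 8 low libraries alone met the filter of 0.5 FPKM in at least 8 libraries. Transcripts at 0 in most high libraries thus entered mainly through the low ones, and their zeros are not separate evidence. Every FL library was above every FH library, as in 154 transcripts (2.59%) whose FH and FL values did not overlap in either direction. The log2 fold change was -2.40 (SE 0.56, limma adjusted p = 0.733), on 3 fragments in the high and 15 in the low libraries. These values are of a single transcript, ENSSSCT00000014704, and do not give the level of the whole gene.

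FLRT3, a membrane protein of cell adhesion and fibroblast growth factor signalling, had the most fragments, after RFXAP, among the 10 lower transcripts with the smallest p. It was at 3.12, 0.93, 2.33 and 11.5 FPKM in LH and 8.21, 7.93, 19.2 and 8.25 FPKM in LL. In the follicular phase it was at 9.3, 7.64, 5.08 and 2.79 FPKM in FH and 7.3, 16.3, 25.9 and 35.9 FPKM in FL. The groups overlapped through LH4 in the luteal and through FL1 in the follicular phase. The log2 fold change was -1.46 (SE 0.49, limma adjusted p = 0.736), on 35 and 104 fragments.

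RFXAP, a subunit of the RFX complex that drives MHC class II genes, was at 0 to 76.3 FPKM (median 10.3) in the high and 20.7 to 121 FPKM (median 26.8) in the low libraries. FH2 alone among the high libraries lay above the low median. Its log2 fold change was -1.72 (SE 0.65, limma adjusted p = 0.784), and LH did not overlap LL. TGDS, a sugar nucleotide dehydratase, and MRPL55, a protein of the mitochondrial ribosome, were above 0 in all 8 low libraries, from 2.98 to 20.1 and from 7.36 to 40.0 FPKM. Both had FL values wholly above FH. RPL6, a ribosomal protein, was at 7.48 to 59.9 FPKM in the low libraries and at 0 in 3 high libraries, but reads of its many near-identical copies could have been split. MDFI, an inhibitor of MyoD family factors, had a log2 fold change of -1.97 (SE 0.65), with 9.76 to 21.8 FPKM in FL against 0 to 3.65 in FH. In the luteal phase its ranges overlapped, with LL3 at 0, and its value was -1.20 in LH vs. LL against -2.75 in FH vs. FL. PHOSPHO1, a phosphatase of bone mineralization, and CCDC120, a centrosomal protein, were each listed at 0 in 6 high libraries, and entered mainly through the low ones. PHOSPHO1 stood at the filter's minimum of 8 libraries, and was tested in only 8 of the 16 fits that left out a library. NIPSNAP3A was at 9.79 to 53.1 FPKM in the low and 0 to 27.3 FPKM in the high libraries, and the study's own list paired this transcript with the symbol NIPSNAP3B. The 10 log2 fold changes ranged from -2.58 to -1.46, with limma adjusted p from 0.733 to 0.784. Without a symbol, ENSSSCT00000023665 (-2.98, SE 0.66) had the smallest p of all transcripts tested. ENSSSCT00000005535 (-2.52, SE 0.75) came next among the lower transcripts without a symbol that were chosen in the same way.

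**Figure D3:**
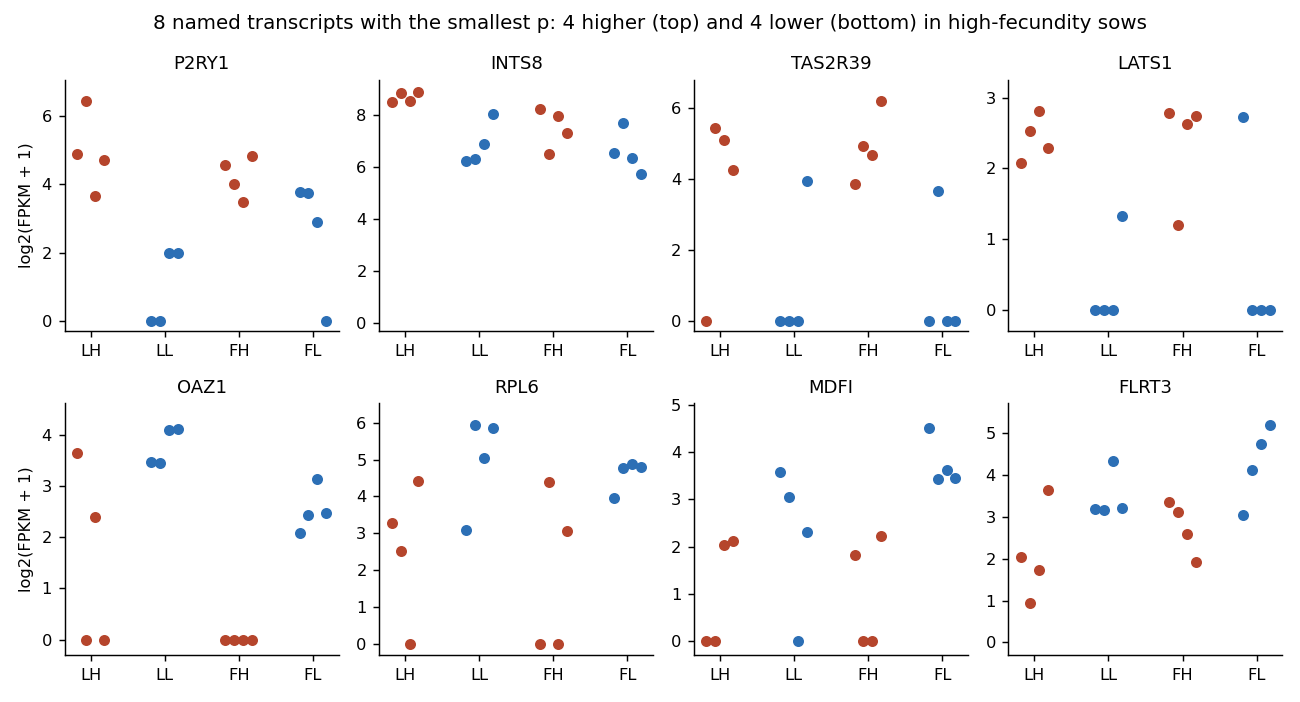
Each point is the log2(FPKM + 1) of 1 library, by group, for the 4 transcripts higher and the 4 lower in high fecundity with the smallest p among those with a symbol, past the threshold and of the same direction in both phases (LH and FH red, LL and FL blue). INTS8 was above 0 in all 16 libraries, whereas TAS2R39, LATS1 and OAZ1 were listed at 0 in at least 6 libraries of the lower level.

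Transcripts with a mean of at least 20 FPKM had a smaller median standard error, 0.37 against 0.56 over all transcripts, although short ones among them still rested on few fragments. Of these 1432, 90 (6.28%) had an unadjusted p under 0.05, and 57 passed the threshold, 41 higher and 16 lower, beside 293 of all 5956. GFM1, the mitochondrial elongation factor G1, was at 53.9, 162, 168 and 123 FPKM in LH and 25.3, 30.7, 83.6 and 99.3 FPKM in LL. It was at 241, 166, 393 and 194 FPKM in FH and 162, 192, 84.8 and 26.4 FPKM in FL. The ranges overlapped through LH1 and FH2, and the log2 fold change was 1.26 (SE 0.40, limma adjusted p = 0.736), on 1336 and 661 fragments. TMEM74, a lysosomal membrane protein linked to autophagy, had a log2 fold change of 1.13 (SE 0.35), from 14.1 to 94.6 FPKM in high and 6.45 to 37.1 FPKM in low libraries, and LH did not overlap LL. Its value came just under the fold threshold when FPKM was rescaled without ND6 (0.95), with limma voom (0.98) and without LH4 (0.98), as that of GFM1 did without FL4 (0.99). LTB, the lymphotoxin beta of lymphocytes, was above 0 in all 8 high libraries (22.4 to 226 FPKM) and at 0 in LL1 and LL4, with 2.38 (SE 0.78). LTB rested on 61 fragments in the high and 25 in the low libraries. CH242-142L3.11, a transcript known by its clone name, had 0.88 (SE 0.29), and its difference lay mostly in the luteal phase (1.55) rather than the follicular phase (0.22).

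In the other direction ACOT4, a peroxisomal acyl-CoA thioesterase, had the smallest p. It was at 260, 101, 165 and 152 FPKM in LH and 377, 310, 396 and 380 FPKM in LL. In the follicular phase it was at 202, 194, 165 and 157 FPKM in FH and 181, 195, 224 and 356 FPKM in FL. LH and LL did not overlap, and FH and FL did. The log2 fold change was -0.77 (SE 0.24, limma adjusted p = 0.736), on 695 fragments in the high and 1165 in the low libraries. IRF1, a transcription factor of the interferon response, was at 3.05 to 39.2 FPKM (median 14.8) in high and 7.94 to 81.8 FPKM (median 35.0) in low libraries, with -1.05 (SE 0.45, limma adjusted p = 0.798). Its groups overlapped in both phases, and leaving out any of 7 libraries ended its place past the threshold. OR52J3, an olfactory receptor whose reads may be shared with related receptors, had -2.35 (SE 0.94) and was at 0 in 4 high libraries and 1 low library. It rested on 17 fragments in the high and 52 in the low libraries. It did not pass without LL1 (-1.92) or without FH3 (-1.86).

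The difference between the fecundity levels was estimated separately in each phase to see whether the pooled value described both. Across the 5956 transcripts, the log2 fold changes of LH vs. LL and FH vs. FL had a Pearson's r of -0.02 and a Spearman's rho of -0.03, as a description across transcripts, which are not independent. They had the same sign in 2823 transcripts (47.4%). At the study's threshold 533 transcripts (8.95%) passed in LH vs. LL, 409 higher (6.87%) and 124 lower (2.08%) in LH. In FH vs. FL 248 (4.16%) passed, 114 higher (1.91%) and 134 lower (2.25%) in FH. A total of 35 passed in both phases, 6.57% of the luteal and 14.1% of the follicular calls, and 12 of these had the same direction. The medians of all transcripts were 0.34 in LH vs. LL and -0.05 in FH vs. FL. No transcript had all 8 high libraries on the same side of all 8 low libraries. In 7 transcripts (0.118%) the groups did not overlap in either phase, and in 0 of these was the direction the same.

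With limma, 0 transcripts passed an adjusted p of 0.05 in LH vs. LL (smallest 0.0574, 562 at an unadjusted p under 0.05, 9.44%), 0 in FH vs. FL (smallest 0.203, 255 unadjusted, 4.28%) and 0 for the interaction of fecundity with phase (smallest 0.132, 495 unadjusted, 8.31%). At the study's threshold the interaction gave 493 transcripts (8.28%), 128 with a larger value in the follicular phase (2.15%) and 365 with a smaller value there (6.13%). With limma voom on recovered fragments the adjusted counts were 29, 2 and 7. In LH vs. LL the count became 15 without LH1 and 16 without LL4, and for the interaction it became 5 without LH1. The 285 of 293 pooled calls that had the same sign in both phases were partly set by the pooled call itself, which favours transcripts that move together.

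**Figure D4:**
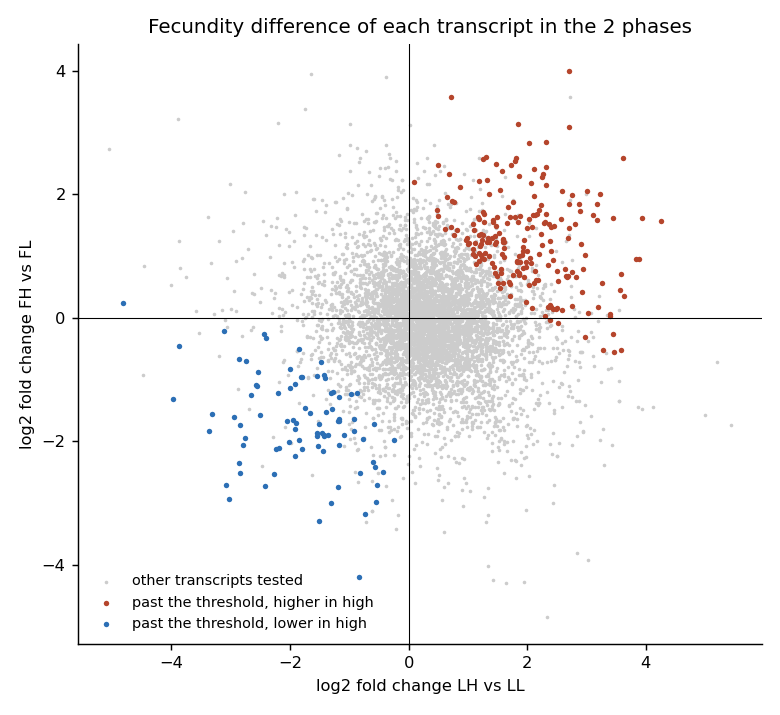
Each point is a transcript, with its log2 fold change of LH vs. LL on the horizontal and of FH vs. FL on the vertical axis. Red and blue mark the 208 and 85 transcripts past the pooled threshold, and grey marks the others. Over all transcripts the values in the phases did not run together (r of -0.02).

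The transcripts with the smallest p for the interaction had opposite signs in the 2 phases, and their pooled values ranged from -1.16 to 1.85. FTL, the ferritin light chain, was at 4.93 to 32.2 FPKM in FH and listed at 0 in all 4 FL libraries, and was at 4.61 to 16.7 in LH against 7.68 to 64.9 in LL. Its interaction was 5.603 (SE 1.04, limma adjusted p = 0.132), and reads of ferritin copies may be shared. ENTPD1, an ectonucleotidase that breaks down extracellular ATP and ADP, was at 38.9 to 463 FPKM in LH and 475 to 1483 FPKM in LL, and at 42.4 to 242 in FH and 19.6 to 62.6 in FL, with a pooled log2 fold change of -0.97 (SE 0.69). The LH and LL values of ENTPD1 did not overlap, with only a narrow gap between LH1 and LL1. RUNX2, a transcription factor, had an interaction of 7.78 (SE 1.76). In the other direction IFN-DELTA-7, an interferon, had -7.18 (SE 1.37), OR1I1, an olfactory receptor, -4.11 (SE 0.94), and SEC23B, a coat protein of vesicles leaving the endoplasmic reticulum, -3.41 (SE 0.78), all with limma adjusted p of 0.132 to 0.169. Of these 6 transcripts OR1I1 passed the pooled threshold (1.53, SE 0.65), although its value was 3.58 in LH vs. LL and -0.52 in FH vs. FL. It did not pass without the phase term, with limma voom (0.71) or in 6 of the 16 fits that left out a library. COQ10A, a protein needed for coenzyme Q function, passed the pooled threshold (-2.29, SE 1.00) with -4.81 in LH vs. LL, where the groups did not overlap, and 0.24 in FH vs. FL, and it stayed past the threshold in 8 of the 16 fits that left out a library. GSS, glutathione synthetase, gave -1.82 in LH vs. LL and 0.38 in FH vs. FL, and its pooled -0.72 (SE 0.41) did not pass.

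Gene lists of ovarian pathways were examined next, each gene by its most abundant transcript with a symbol. The share past the study's threshold among all transcripts was 4.92%. Only transcripts with a symbol could enter the lists, and of the 1526 tested transcripts with a symbol 122 passed. Each count below is to be read against both. Of the 6 tested genes of steroidogenesis, 0 passed the study's threshold, and their median log2 fold change was -0.19 against 0.13 over all transcripts. CYP21A2, the steroid 21-hydroxylase, was at 54.7 to 173 FPKM in high and 30.0 to 388 FPKM in low libraries (0.14, SE 0.36). STARD3, a cholesterol carrier of endosomes, had -0.08 (SE 0.45). The estimates of these genes lay within the spread between sows. Of 8 genes of cholesterol supply, 0 passed (median 0.09). CYP51A1, an enzyme of cholesterol synthesis, had 0.94 (SE 0.43), with 9.61 to 21.9 FPKM in high and 1.79 to 22.0 in low libraries. Of 5 receptors and enzymes for steroid hormones and prostaglandins, 0 passed (median 0.06).

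In TGF-beta, BMP and activin signalling 1 of 13 tested genes passed, against 4.92% of all transcripts, and the median was 0.29. This was SMAD3, which carries TGF-beta and activin signals to the nucleus, at 1.51 to 46.7 FPKM (median 9.71) in high and 5.29 to 53.6 FPKM (median 29.1) in low libraries. The ranges overlapped widely, and the log2 fold change of -1.19 (SE 0.56, limma adjusted p = 0.798) stayed past the threshold in only 5 of the 16 fits that left out a library and in 9 of 14 other alternatives. BMP6, a ligand made by oocytes and granulosa cells, was the best measured member, with 14631 fragments in the high and 11201 in the low libraries. It was at 950 to 2145 FPKM (median 1365) in high and 629 to 1759 FPKM (median 1085) in low libraries. Its log2 fold change was 0.49 (SE 0.23), under the fold threshold. The receptor BMPR2 had 1.43 (SE 0.94), and LTBP1, which stores latent TGF-beta in the matrix, had 1.10 (SE 0.56), without passing.

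In insulin, IGF, PI3K and mTOR signalling 1 of 9 tested genes passed, against 4.92% of all transcripts (median 0.06). IGF2BP2, which binds and stabilizes mRNAs such as that of IGF2, was listed at 0 in 5 of 8 high libraries and 1 of 8 low libraries, with medians of 0 and 12.8 FPKM. Its log2 fold change was -1.86 (SE 0.83, limma adjusted p = 0.798), and it stayed past the threshold in 6 of the 16 fits that left out a library. TSC2, an inhibitor of mTOR, was at 91.9 to 269 FPKM in high and 119 to 227 FPKM in low libraries (0.13, SE 0.22). All 8 tested genes of Wnt signalling had positive values (median 0.42), as did 3601 of the 5956 transcripts, and 0 of the 8 passed. In Notch and hedgehog signalling 1 of 4 passed, again against 4.92%, NOTCH4, a receptor of endothelium, with 1.00 (SE 0.37). NOTCH4 fell short after quantile normalization (0.64) and median-ratio scaling (0.98), and passed in 7 of the 16 fits that left out a library. IHH, a hedgehog ligand of granulosa cells, had 0.99 (SE 0.43), just under the fold threshold.

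In each list of cell type markers at most 1 gene passed, where 4.92% of all transcripts and 122 of the 1526 with a symbol did. Of granulosa and oocyte genes 0 of 4 tested passed (median -0.10), of endothelium and angiogenesis 0 of 9 (median 0.28), and of erythroid genes 0 of 1. Among leukocyte genes 1 of 7 passed (median 0.46), CSF2RB, a shared cytokine receptor subunit, with 1.14 (SE 0.44), 0 to 4.67 FPKM in high libraries and 0 in 6 of 8 low libraries. It did not pass after quantile normalization (0.80) or without LH2 (0.96). The summed FPKM of the leukocyte list overlapped, at 64.9 to 164 in high and 74.8 to 287 in low libraries, and its part in the values of LTB and IRF1 was not tested. Among smooth muscle genes 1 of 4 passed, DES, the intermediate filament desmin, with 1.27 (SE 0.58), which passed in 7 of the 16 fits that left out a library and in 8 of 14 other alternatives, not after quantile normalization, rescaling without ND6 or with voom. The summed smooth muscle level was 14.3 to 38.8 in high and 13.0 to 34.4 in low libraries. Of collagens and other matrix genes 0 of 16 passed (median -0.07), although FBN1, a microfibril protein, had 0.85 (SE 0.30). Of matrix proteases and their inhibitors 0 of 12 passed (median -0.12).

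Among cell cycle genes 0 of 12 passed, against 4.92% of all transcripts (median 0.17), and CDC20, an activator of the anaphase-promoting complex, was at 45.6 to 264 FPKM in high and 57.6 to 243 FPKM in low libraries (-0.02, SE 0.33). Of ribosomal and reference genes 0 of 8 passed (median 0.42). Of the mitochondrially encoded subunits 0 of 2 passed (median -0.75), and of nuclear respiratory chain genes 0 of 2 (median 0.25). In glutathione and redox metabolism 1 of 5 passed, COQ10A (median -0.40), and among lysosomal genes 1 of 6 (median -0.06), beside the same 4.92%. The lysosomal gene was CTSH, the protease cathepsin H, listed at 0 in 5 high and 2 low libraries, with -1.61 (SE 0.76), which stayed past the threshold in 5 of the 16 fits that left out a library and in 8 of 14 other alternatives.

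**Figure D5:**
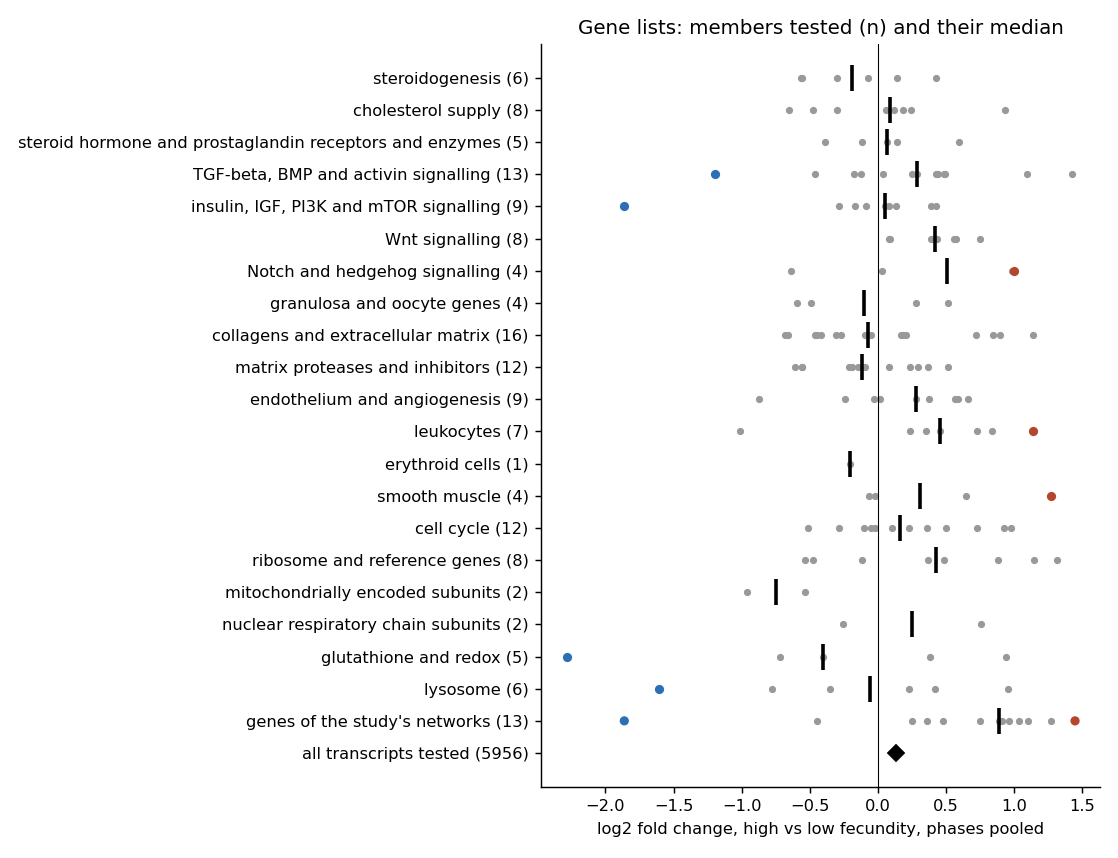
Each row is a gene list with its number of tested genes in brackets, each point the pooled log2 fold change (high vs. low fecundity) of a gene, and each bar the list's median, with the median of all 5956 transcripts (0.13) as a diamond. Red and blue points mark genes past the threshold, at most 2 in any list, and the median of the study's network genes (0.89) lies farthest to the right.

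The genes that the study placed in its regulatory networks were picked from these same libraries, so their direction is not independent evidence. The study drew these networks separately for LH vs. LL and FH vs. FL. Of 17 genes 13 were tested and 11 had positive values, as did 3601 of the 5956 transcripts. The median was 0.89 against 0.13 over all transcripts, and 1 gene passed the threshold in each direction. Among all transcripts 4.92% passed, and 122 of the 1526 tested with a symbol. LRRTM1, a synaptic adhesion protein, was at 11.3 to 64.2 FPKM (median 37.3) in high and 0 to 24.5 FPKM (median 21.0) in low libraries, and had 1.45 (SE 0.59, limma adjusted p = 0.798). Its values were high in LH2, LH3 and FH2, and FL4 was listed at 0. Without FL4 it did not pass (0.92). IGF2BP2 was the gene with the lower value. NUMBL, an inhibitor of Notch signalling, was above 0 in all high libraries (1.74 to 13.9 FPKM) and at 0 in 4 low libraries, with 1.27 (SE 0.63). This was made of 2.26 in LH vs. LL and 0.28 in FH vs. FL, where FL1 (9.97 FPKM) and FL2 (6.83 FPKM) lay above every FH library. CAMKV, a kinase-like protein, had 1.04 (SE 0.51), made of 2.14 in LH vs. LL and -0.07 in FH vs. FL. The glutamate receptor subunits GRIN2D and GRIK4 had 0.96 (SE 0.42) and 0.91 (SE 0.45). TGFBR1, the type I receptor for TGF-beta, had 0.25 (SE 0.57), with 1.16 in LH vs. LL and -0.67 in FH vs. FL.

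The other tested network genes had wide intervals. PRR14, a protein that tethers heterochromatin, had 1.10 (SE 0.67), SLC25A43, a mitochondrial carrier, 0.89 (SE 0.83), and FZD5, a Wnt receptor, 0.75 (SE 0.52). In that order their values were 1.91, -0.82 and -0.41 in LH vs. LL, and 0.29, 2.59 and 1.91 in FH vs. FL. FH and FL did not overlap for FZD5. TSHZ2, a zinc finger protein, had 0.36 (SE 0.45), and LOXL4, which cross-links collagen, had -0.45 (SE 0.53). TSHZ2 had 0.998 in LH vs. LL and -0.28 in FH vs. FL, and LOXL4 had -1.57 and 0.68. The pooled value of TSHZ2 took the opposite sign after quantile normalization. PAQR7, a membrane progestin receptor, was listed at 0 in all 8 low libraries and in 4 of 8 high libraries, where LH1, LH2, FH1 and FH3 had 5.84, 6.14, 12.3 and 15.6 FPKM. It was listed above 0 in too few libraries to be tested, as were TMEM8B and LETM1.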

How the data were processed

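Ovarian RNA of 16 sows was sequenced. The study's methods describe directional, paired libraries depleted of ribosomal RNA, mapped to the Sscrofa10.2 assembly and summarised per transcript with RSEM. The submitters' processing notes name HISAT2 2.0.1, StringTie 1.0.4 and DESeq2 1.6.3. The authors deposited these values as FPKM, rounded to 2 decimals, in 1 table of 27370 transcripts, of which 8103 are listed at 0 in all libraries. FPKM is relative within a library, so abundant transcripts lower the values of the others. Replicates were separate, unrelated sows.

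Limma 3.58.1 in R 4.3.3 was fitted to log2(FPKM + 1) with phase and fecundity as terms, a mean trend in the moderated variances, two-sided p-values and a Benjamini-Hochberg adjustment across the 5956 transcripts with an FPKM of at least 0.5 in at least 8 libraries. Fold changes are high minus low on this scale, which understates low transcripts. LH vs. LL, FH vs. FL and the interaction came from a fit of 4 group means, and these comparisons share their libraries with the pooled one. Library measures were compared by exact permutation within phase in Python 3.11.15 (scipy 1.17.1, numpy 2.4.6, pandas 2.3.3), and figures used matplotlib 3.10.9. The scripts were tested on simulated data.

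Fragments were recovered from the deposited FPKM as whole multiples of a step in transcripts of at least 600 nt; 93.1 to 94.9% of low values fell within 0.05 of a whole number. ND6, RUNX2, IFN-DELTA-7 and CH242-142L3.11, of 528, 438, 462 and 573 nt, are shorter, so no fragments are given for them. The recovered fragments cover counting error only.

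The table gives transcript IDs. The study's lists of differential transcripts and of miRNA targets, with a gene name table, paired 3847 transcripts with 3277 symbols, 1526 of the transcripts tested; 17 symbols differed between sources. Names therefore favour transcripts the study called differential. No positions or sequences are given, since no annotation of this assembly was used here.

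Named were every transcript with an adjusted p under 0.05 (0 were found), per direction the 10 with a symbol and the 2 without that had the smallest p past the study's threshold with 1 direction in both phases, the 5 with a symbol, a mean of at least 20 FPKM and the smallest p under 0.05, members of the 21 gene lists past the threshold and all network genes, and the 3 with a symbol and the smallest interaction p. Values of some genes that these rules name are not reported here. Other list genes named were chosen after their values were seen. The comparison and the lists were chosen with earlier results of these data known. Alternatives were another pseudocount, other filters, scalings and variance models, a replicate block, limma voom and each library left out; rescaling without ND6 was added after the data were seen. Columns of small RNA and long non-coding RNA were not analysed here.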

Additional observations from a re-analysis of the deposited data

Results flagged for a closer look

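In 17 of 124 groups of 4 libraries examined, 1 library stood apart from the other 3 by Dixon's test at the 95% level. That level assumes normally distributed values, so these 17 cannot be set against a rate expected by chance. LH2 had the lowest share of the 10 most abundant transcripts in LH (38.4%) and the lowest ND6 in LH (32444 FPKM), and LH4 had the highest CH242-142L3.11 in LH (333 FPKM). Most other cases were transcripts listed at 0 in 3 libraries and seen in the fourth, where Dixon's ratio is 1 whatever the value. These were TAS2R39 in LL4 (14.2 FPKM) and FL2 (11.5 FPKM), LATS1 in LL4 (1.51 FPKM) and FL1 (5.61 FPKM), NANOS1 in LL3 (6.89 FPKM), SERBP1 in LL4 (8.98 FPKM), TMEM222 in FL3 (8.55 FPKM), CCDC120 in LH3 (1.45 FPKM) and FH2 (9.16 FPKM), and OR52J3 in LH3 (12.2 FPKM). The lowest values of LATS1 in FH2 (1.3 FPKM), RPL6 in FL1 (14.4 FPKM) and NIPSNAP3A in FH3 (9.21 FPKM) and the highest of FLRT3 in LL3 (19.2 FPKM) also stood apart. The cause was not tested.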

How the results depend on the processing

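The pooled count of transcripts with a limma adjusted p under 0.05 was 0 in all 14 alternatives and all 16 fits that left out a library. Looser filters raised the pooled count past the study's threshold, to 576 (410 higher, 166 lower) with no filter and 533 (384 higher, 149 lower) with 0.5 FPKM in at least 4 libraries. These settings tested 19267 and 11027 transcripts, and gave 1024 and 651 transcripts in FH vs. FL and 869 and 784 interactions at an unadjusted p under 0.05. Adjusted interactions numbered 2 with a pseudocount of 0.1, 1 with the filter at 4 libraries, 7 with limma voom and 0 to 5 with a library left out (5 without LH1, 1 without LH3 and without LL2). The cause was not tested. The number of higher transcripts ranged from 128 (without LH2) to 264 (without LH1).

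Without ND6 the difference in the share of the 10 most abundant transcripts was -0.59 points, chosen after seeing the data. The difference in recovered fragments, 3125, ranged from -8833 to 12375 with a library left out. TSHZ2 became -0.0825 after quantile normalization. The pooled value of SEC23B, -0.02, became 0.29 with a pseudocount of 0.1, 0.0739 with median-ratio scaling and 0.12 with voom, and ranged from -0.24 to 0.28 with a library left out, while TGFBR1 ranged from -0.0805 to 0.46. ND6 passed the fold threshold with median-ratio scaling (-1.02) and in 7 of 16 fits that left out a library (lowest -1.10).

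Same-numbered sows did not pair (correlations of deviations from -0.079 to 0.177, median -0.008 over 24 pairs). With the replicate number as a block, 283 transcripts passed, 207 higher and 76 lower.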

Other observations

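A pair of genes of steroid metabolism had opposite values in the phases. STARD3 had a log2 fold change of 0.92 in LH vs. LL and -1.07 in FH vs. FL, and CYP21A2 had 0.98 and -0.70. The median of the 6 tested steroidogenic genes was 0.74 in the luteal and -0.52 in the follicular phase, against 0.34 and -0.05 over all transcripts. The interaction of CYP21A2 was -1.67 (SE 0.62, limma adjusted p = 0.512), so the differences between the phases did not pass adjustment. These genes were chosen after their values were seen.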
